A study of Homo sapiens with 6 samples.

Results

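The genes described here are the chemokines, the interleukins, the receptors of both, the colony-stimulating factors CSF1, CSF2 and CSF3, and LIF, in cultured human endothelial cells with and without an intact CCM3 gene. They were chosen by name: every row of the deposited count table whose symbol starts with CCL, CXCL, CCR, CXCR or IL followed by a digit, together with CX3CL1, CX3CR1, LIF and the 3 colony-stimulating factors. This gave 153 of the 28514 rows, among them a few antisense RNAs and pseudogenes that share the name. Of the 153 genes, 40 had no read in any library, 58 had reads but missed the filter on low counts, and 55 were tested.

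Messenger RNA was sequenced from 6 cultures of CI-huVEC, which are immortalised endothelial cells from the human umbilical vein, all at passage 31. The wild-type group held 3 cultures, WT 1, WT 2 and WT 4. The knockout group, K17, K18 and K19, held 3 clonal lines edited by CRISPR/Cas9 at exon 3 of CCM3, the disease name of PDCD10, a gene mutated in familial cerebral cavernous malformations. The comparison asks how transcript levels differ with CCM3 loss. No treatment or cytokine stimulus is labelled, and the clone label HKO, which is not explained, stands on every sample. Each knockout line is 1 clone, so CCM3 loss and the isolation of clones cannot be told apart, and p-values measure the spread between these cultures alone, part of which may be technical.

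Chemokines are small secreted proteins that bind seven-transmembrane receptors and draw leukocytes toward their source. Interleukins and colony-stimulating factors are a wider set of secreted messengers between leukocytes, endothelium and other cells. They signal mostly through receptors bound by JAK kinases or, for the interleukin-1 and interleukin-17 families, through adaptor proteins that lead to NF-kappaB. Endothelial cells make several of them, among them IL6, IL8 and CCL2, when activated by inflammatory signals, and present chemokines to passing leukocytes.

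Total counts ranged from 28280417 to 32919491 per library. By these totals alone, 3 counts corresponded to 0.0911 to 0.106 CPM (reads of a gene scaled to the size of its library). The CPM given for genes also use a scaling factor per library (TMM), from 0.969 to 1.02. PDCD10 was still transcribed but fell by 0.71 on the log2 scale in the knockout clones (SE 0.11, adjusted p = 0.00374). All 10 endothelial marker genes were expressed in all 6 libraries and 8 of them rose, where 18% of all tested genes rose. Their summed level was 2779 to 2911 CPM in wild type and 4606 to 5011 CPM in knockout. Of 12 leukocyte markers 4 were tested and 2 rose, and the summed level was 20.8 to 25.4 CPM in wild type and 39.5 to 45.2 CPM in knockout. Nearly all of it was CD68, a lysosomal protein, whereas the defining leukocyte gene PTPRC stayed at or below 0.692 CPM in every library and none of the 12 was at 0 throughout. The fibroblast markers summed to 5.39 to 5.59 CPM against 54.5 to 275 CPM, of which PI16 made up most in knockout, the smooth muscle and pericyte markers to 381 to 398 CPM against 46.8 to 78.5 CPM (RGS5 and TAGLN fell and ACTA2 rose), and the epithelial markers to 243 to 262 CPM against 352 to 629 CPM, with CDH1 at 0. The part of these other cell type markers in the results was not tested. Knockout clone K17 stood apart: a chi-square over genes, divided by its degrees of freedom, was 68.7 and 69.7 for its pairs with K18 and K19, 19.8 between K18 and K19, and 2.09 to 4.25 between wild-type cultures.

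Of the 55 tested genes, 12 rose, 10 fell and 33 did not pass the test in the knockout clones (edgeR quasi-likelihood test, Benjamini-Hochberg adjusted p below 0.05). Those called made up 40.0% of those tested, where 38.7% of all 14548 tested genes were called. In each direction the share was likewise near the background, 21.8% against 18% for higher and 18.2% against 20.8% for lower. The groups did not overlap for 28 of the 55 genes, against 55.5% of all tested genes. The count of changed genes therefore does not set them apart. The median log2 fold change was -0.01, and 0.00 over all tested genes. Its median absolute size was 0.73, and 0.33 over all tested genes, which have other levels and were not matched. Without K17, 58 of the genes were tested, and 19 rose and 12 fell. These made up 32.8% and 20.7% of the tested genes, where 32.2% and 30.3% of all genes tested without K17 were called higher and lower. Where a call below arose only without 1 clone, the clone left out went least in the direction of the call. Such calls describe how a result depends on that clone and are no support for a change.

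In the promoters of 6 CXC chemokine genes that lie in 1 cluster on chromosome 4, a stretch of 9 bases was shared. PF4V1, PF4 and PPBP, with at most 2 counts in any library, lie in the same cluster, and their windows were not compared. The stretch is shown here because genes of the cluster moved in opposite directions in the knockout clones, as given after the sequences. The promoter windows of IL8, CXCL6, CXCL1, CXCL5, CXCL3 and CXCL2 (RefSeq, GRCh38.p14) all hold GGAATTTCC, in capitals below, at 77 to 91 bases before the transcript start. Each printed sequence is the 150 bases before the start, read 5′ to 3′ on the gene's own strand. IL8 lies at chr4:73740419-73740568 on the plus strand, CXCL6 at chr4:73836528-73836677 on the plus strand, CXCL1 at chr4:73869243-73869392 on the plus strand and CXCL2 at chr4:74099196-74099345 on the minus strand.
IL8: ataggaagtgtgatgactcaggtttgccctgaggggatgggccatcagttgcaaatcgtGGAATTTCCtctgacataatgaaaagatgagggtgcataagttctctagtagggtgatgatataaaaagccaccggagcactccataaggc
CXCL6: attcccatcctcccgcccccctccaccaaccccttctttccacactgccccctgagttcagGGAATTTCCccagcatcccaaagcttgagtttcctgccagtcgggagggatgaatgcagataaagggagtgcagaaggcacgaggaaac
CXCL1: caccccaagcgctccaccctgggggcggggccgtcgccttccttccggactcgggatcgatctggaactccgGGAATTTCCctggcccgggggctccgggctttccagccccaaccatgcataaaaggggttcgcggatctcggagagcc
CXCL2: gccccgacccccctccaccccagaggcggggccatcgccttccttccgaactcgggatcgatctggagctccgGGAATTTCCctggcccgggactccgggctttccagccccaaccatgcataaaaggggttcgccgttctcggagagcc

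The stretch was picked out after the 6 windows had been compared with each other. On either strand it occurs in 129 of 27305 RefSeq promoter windows of 300 bases (0.472%). In every window but that of IL8 it overlaps an NF-kappaB type motif (GGG, then 5 bases of any kind, then CC). That motif is in all 6 windows, in IL8 outside the stretch, but also in 58% of all windows on either strand. In IL8 the stretch has T before and after it, where the motif needs G before it or C after it. The AP-1 motif TGANTCA (7.76% of all windows) was found in the IL8 window and in none of the other 5. The STAT motif TTCNNNGAA (7.88%) was found in the CXCL6 and CXCL5 windows, where it overlaps the stretch. The IL6 window lacks the 9-base stretch and holds GGGATTTTCC, a match to the NF-kappaB type motif. A match describes letters and is no evidence that a factor binds there, and a miss is no evidence that none does.

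Within this cluster CXCL1 and CXCL2 rose, CXCL6 fell, and IL8, CXCL3 and CXCL5 did not pass the test. CXCL1, CXCL2, CXCL3, CXCL5, CXCL6 and IL8 (current symbol CXCL8) encode chemokines that attract neutrophils through the receptors CXCR1 and CXCR2. In WT 1, WT 2 and WT 4 the level of CXCL2 was 12.8, 14.5 and 15.02 CPM. In K17, K18 and K19 it measured 43.2, 51.8 and 72.2 CPM. All 3 clones lay above all wild-type cultures, and the level was 3.96-fold higher (log2 fold change 1.99 ± 0.20 SE, adjusted p = 0.000883). CXCL1 measured 41.8, 43.4 and 44.7 CPM in wild type and 92.6, 67.1 and 92.4 CPM in the clones. The groups again did not overlap, with K18 the lowest clone, and the difference was 1.94-fold (log2 fold change 0.96 ± 0.13, adjusted p = 0.00269).

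CXCL6, at much lower levels, went the other way. It measured 1.54, 2.17 and 2.01 CPM in wild type and 0.579, 0.108 and 0.380 CPM in the clones, 5.26-fold lower without overlap (log2 fold change -2.40 ± 0.46, adjusted p = 0.00894). IL8 was the most abundant chemokine of wild-type cells, at 38.2 ± 0.717 FPKM (mean ± SD, n = 3; FPKM, the deposited level per transcript length, allows genes to be compared). Its level was 81.0, 81.5 and 78.7 CPM in wild type and 66.3, 22.5 and 49.2 CPM in the clones. Every clone lay below every wild-type culture, but the clones differed among themselves and the test was not passed (log2 fold change -0.80 ± 0.35, adjusted p = 0.116; 0.049 by DESeq2). CXCL1, at 29.4 ± 1.25 FPKM in wild type, stood at 55.3 ± 9.84 FPKM in the clones.

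CXCL3 measured 2.39, 2.98 and 3.05 CPM in wild type and 2.42, 3.98 and 5.74 CPM in the clones (adjusted p = 0.225), and the groups overlapped through K17. Without K17 it was called higher (log2 fold change 0.80, adjusted p = 0.00894). CXCL5 stayed below 0.55 CPM in every library and was not called (adjusted p = 0.262). Sequence shared with CXCL3 and CXCL1 made up 12.5% of the 50-base stretches of CXCL2 transcripts in GENCODE, so reads could be lost or split between these genes to that extent.

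**Figure D1:**
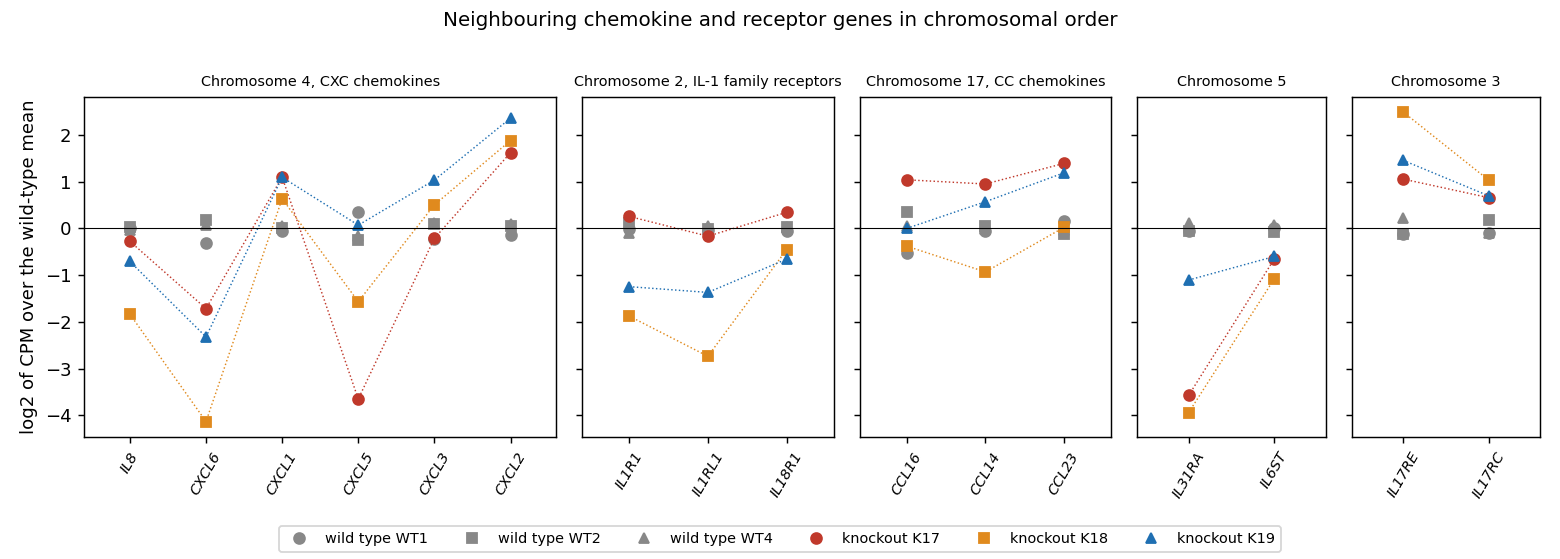
Levels of neighbouring genes in chromosomal order, as log2 of CPM over the wild-type mean (vertical axis), per library. Dotted lines join the genes of 1 knockout clone. In the CXC chemokine panel all 3 clones lie above zero at CXCL1 and CXCL2 and below it at IL8 and CXCL6, and in the interleukin-1 receptor panel K18 and K19 lie below zero at all 3 genes while K17 stays near it.

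Of the other CXC chemokines, CXCL11 was close to undetected in the clones. CXCL11 is an interferon-induced ligand of CXCR3. It had 50 counts over the wild-type cultures and 1 count over the clones. The ratio of these summed counts, scaled to library totals, was 46.5-fold lower (95% counting interval 7.97 to 1872). The edgeR fit gave 33.8-fold lower (log2 fold change -5.08 ± 0.74, adjusted p = 0.00231). Its level in wild type was 0.421 to 0.692 CPM. CXCL16, a membrane-anchored chemokine, measured 1.51, 1.72 and 2.25 CPM in wild type and 2.62, 0.470 and 2.00 CPM in the clones, without a call (adjusted p = 0.900). K18 alone lay below the wild-type range and K17 alone above it.

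Among the CC chemokines CCL2 rose and the other 4 tested genes did not pass the test. CCL2, the main attractant of monocytes, measured 14.1, 16.3 and 16.3 CPM in wild type and 31.9, 25.9 and 19.9 CPM in the clones. The groups did not overlap, and CCL2 was 1.66-fold higher (log2 fold change 0.73 ± 0.18, adjusted p = 0.0209). The call was lost without WT 1, WT 2, WT 4 or K18 (adjusted p = 0.0861, 0.0645, 0.0697 and 0.0557).

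CCL14, CCL16 and CCL23 lie next to each other on chromosome 17, with CCL15 between CCL14 and CCL23. CCL14 measured 5.05, 5.45 and 5.23 CPM in wild type and 10.1, 2.75 and 7.78 CPM in the clones. K17 and K19 lay above the wild-type cultures and K18 below them, so that no call was made (adjusted p = 0.489), and 15.5% of its transcript stretches are shared with the readthrough gene CCL15-CCL14. CCL23 measured 0.907, 0.752 and 0.796 CPM in wild type and 2.15, 0.831 and 1.87 CPM in the clones (adjusted p = 0.0741), and CCL16 measured 0.816, 1.505 and 1.21 CPM against 2.42, 0.903 and 1.18 CPM (adjusted p = 0.531). Without K18 both CCL14 and CCL23 were called higher (adjusted p = 0.0182 and 0.00725). CCL20, the ligand of CCR6, measured 2.18, 1.81 and 2.42 CPM in wild type and 0.988, 1.84 and 0.968 CPM in the clones (adjusted p = 0.0865). Only K18 overlapped the wild type, and without K18 CCL20 was called lower (log2 fold change -1.10, adjusted p = 0.0165).

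Chemokine receptors were sparse, and the change that passed the test was the fall of CXCR4. CXCR4 is the receptor of CXCL12 and acts in endothelial sprouting and in the homing of blood cells. In WT 1, WT 2 and WT 4 it stood at 9.28, 9.24 and 7.61 CPM. The clones K17, K18 and K19 had 0.102, 0.867 and 0.277 CPM. The level was 21.0-fold lower in the clones, each of which lay far below the wild type (log2 fold change -4.39 ± 0.57, adjusted p = 0.00218). Without K18, the highest clone, the log2 fold change was -5.48. In bulk cultures a loss in all cells and a loss of the cells that express a gene cannot be told apart. The ligand CXCL12 had at most 16 counts in any library, 29 over wild type and 25 over the clones.

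CXCR7 (current symbol ACKR3), which also binds CXCL12 and acts as a scavenging receptor, differed between clones. It measured 0.786, 0.843 and 0.519 CPM in wild type, 15.1 CPM in K17, 0.0361 CPM in K18 and 0.484 CPM in K19. Thus K17 had 444 reads where K18 had 1, and no call was made (log2 fold change 2.85 ± 1.61, adjusted p = 0.197). The direction rests on K17: without it the log2 fold change was -1.43 (adjusted p = 0.0914), and limma-voom over all libraries gave 0.09. CCR6 was below 0.73 CPM throughout and was not called (adjusted p = 0.118), and 68.2% of its transcript stretches are shared with other annotated genes, chiefly the overlapping Z94721.2. CXCR1 and CXCR2, the receptors for the neutrophil chemokines above, had at most 7 and 9 counts in any library.

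**Figure D2:**
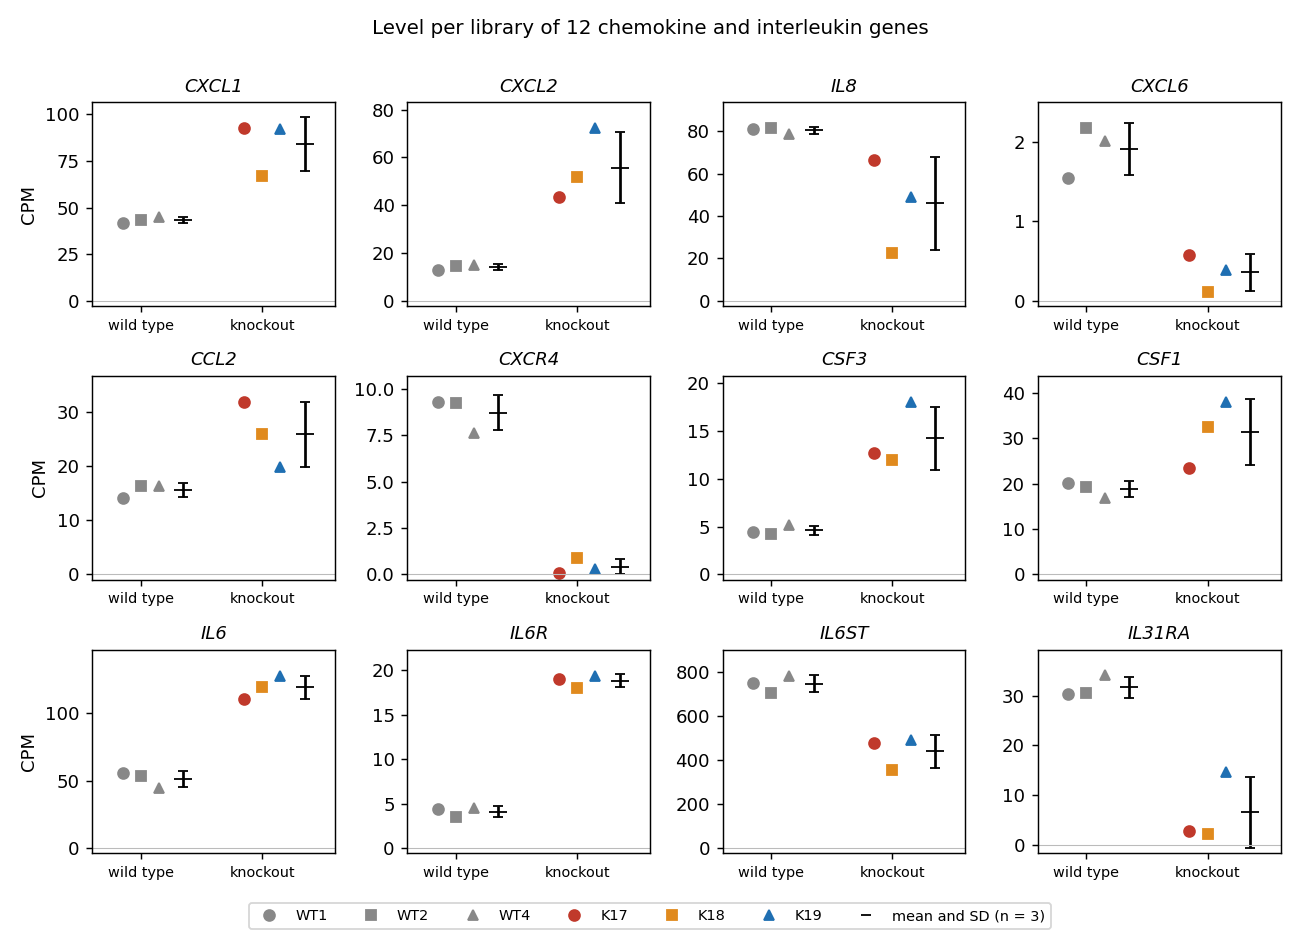
Level in CPM (vertical axis, starting near 0) of 12 genes in each library, with wild-type cultures in grey and knockout clones in colour. Black bars give the mean and SD of 3 libraries. CXCL2, CSF3, IL6 and IL6R lie higher in all 3 clones and CXCR4, CXCL6, IL6ST and IL31RA lower in all 3, whereas the IL8 values of the clones spread from 22.5 to 66.3 CPM.

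The colony-stimulating factors all rose. These are the growth and survival factors of the myeloid lineages: CSF1 for macrophages, CSF2 for granulocytes and macrophages, and CSF3 for neutrophils. CSF3 measured 4.47, 4.18 and 5.16 CPM in wild type and 12.7, 11.96 and 18.01 CPM in the clones, 3.09-fold higher without overlap (log2 fold change 1.63 ± 0.19, adjusted p = 0.00148). CSF2 was near the detection floor in wild type, at 0.0346 to 0.151 CPM and 11 counts in all, and reached 0.681, 0.976 and 0.830 CPM with 71 counts in the clones (log2 fold change 2.81 ± 0.42, adjusted p = 0.00329). CSF1 measured 20.2, 19.4 and 16.9 CPM in wild type and 23.5, 32.4 and 38.0 CPM in the clones.

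All clones lay above the wild type for CSF1, with K17 closest to it (1.66-fold higher, log2 fold change 0.73 ± 0.18, adjusted p = 0.0229). That call was lost without WT 1, WT 2, WT 4 or K18, at adjusted p = 0.0554 to 0.0918. The summed level of these genes and IL34 was 23.5 ± 1.42 CPM in wild type and 46.4 ± 9.96 CPM in the clones (mean ± SD, n = 3 each). To this sum IL34 added 1 count over wild type and 5 over the clones. Of the receptors for these factors, CSF1R and CSF3R missed the filter, with at most 0.242 and 0.572 CPM, and CSF2RA was listed at 0. CSF2RB, the shared beta chain of the CSF2, interleukin-3 and interleukin-5 receptors and named here outside the rule for its pairing with CSF2, rose from 38.9, 39.7 and 37.5 CPM to 92.0, 91.8 and 153 CPM (log2 fold change 1.54 ± 0.21, adjusted p = 0.0027).

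In the interleukin-6 family the ligand IL6 and its receptor IL6R rose while the shared signalling chain IL6ST fell. IL6 is a cytokine of the acute phase response that binds IL6R, and the pair then engages gp130, the product of IL6ST, which activates JAK kinases and STAT3. IL6 measured 55.5, 53.7 and 45.0 CPM in wild type and 111, 119 and 128 CPM in the clones. The groups stood well apart, and the level was 2.32-fold higher (log2 fold change 1.21 ± 0.10, adjusted p = 0.000363). IL6R measured 4.41, 3.46 and 4.50 CPM against 19.1, 18 and 19.4 CPM. It was 4.56-fold higher, and the clones lay within 1.08-fold of each other (log2 fold change 2.19 ± 0.13, adjusted p = 0.000139).

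IL6ST was the next most abundant transcript of the set after IL1RL1 in wild-type cells, at 66.7 ± 3.38 FPKM. It measured 751, 706 and 783 CPM in wild type and 476, 354 and 492 CPM in the clones. All clones lay below the wild type, 1.70-fold lower on average (log2 fold change -0.76 ± 0.13, adjusted p = 0.00578). IL31RA, the adjacent gene on chromosome 5, encodes a receptor chain that pairs with OSMR to bind interleukin-31. It measured 30.4, 30.6 and 34.2 CPM in wild type and 2.66, 2.06 and 14.7 CPM in the clones.

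All 3 clones were below the wild type for IL31RA, with K19 nearer to it than the others (log2 fold change -2.29 ± 0.73, adjusted p = 0.0489). Without K19 the log2 fold change was -3.72 (adjusted p = 0.000192). The call was lost when any 1 library other than K19 was left out (adjusted p = 0.0932 to 0.130). It was also lost with no filter, a filter of 1 CPM or the GC-content trend removed (adjusted p = 0.0921, 0.0501 and 0.0502). LIF, another gp130 ligand, measured 0.967, 0.843 and 0.658 CPM against 0.988, 1.37 and 3.25 CPM (adjusted p = 0.0950). Its clones all lay above the wild type, K17 by little, and without K17 it was called higher (log2 fold change 1.49, adjusted p = 0.00922). IL27RA measured 9.98, 9.51 and 9.48 CPM against 8.55, 13.01 and 21.1 CPM (adjusted p = 0.195) and was called higher without K17 (adjusted p = 0.00671). IL11RA, the interleukin-11 receptor, measured 5.68, 5.48 and 5.43 CPM in wild type and 5.45, 5.24 and 5.15 CPM in the clones (adjusted p = 0.648), with 14.3% of its transcript stretches shared with overlapping genes.

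Among ligands and inhibitors of the interleukin-1 family, IL18BP, IL1A and IL33 fell. IL18BP encodes a secreted protein that binds and neutralises interleukin-18. It measured 23.6, 27.4 and 26.9 CPM in wild type and 11.8, 11.3 and 10.7 CPM in the clones. The clones agreed closely and the level was 2.30-fold lower (log2 fold change -1.20 ± 0.10, adjusted p = 0.00034). Since IL18BP and NUMA1 overlap on opposite strands and the strand setting of the counting is not given, reads of NUMA1 could enter its count.

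IL18 itself split the clones. It measured 29.5, 30.1 and 30.9 CPM in wild type, 51.8 and 55.1 CPM in K17 and K18, and 7.503 CPM in K19. K17 and K18 were thus above the wild type and K19 below it (adjusted p = 0.692), and without K19 the gene was called higher (log2 fold change 0.84, adjusted p = 0.00123). The log2 fold change over all clones was 0.34 by edgeR and -0.12 by limma-voom. IL33, an alarmin held in the nucleus of endothelial cells, measured 1.69, 2.38 and 2.63 CPM against 0.511, 0.217 and 0.864 CPM. It fell 4.16-fold without overlap (log2 fold change -2.06 ± 0.44, adjusted p = 0.0132), a call lost without WT 2 or WT 4 (0.0515 and 0.0570). IL1A, which encodes interleukin-1 alpha, measured 1.36, 1.14 and 1.66 CPM against 0.579, 0.434 and 0.484 CPM, and also fell without overlap (2.76-fold, log2 fold change -1.46 ± 0.24, adjusted p = 0.00442).

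Beside IL1A on chromosome 2, IL1B missed the filter with 4, 8 and 3 counts in wild type and 9, 23 and 18 counts in the clones. The ratio of summed counts, scaled to library totals, was 3.59 with a 95% counting interval of 1.98 to 6.88, in the opposite direction to IL1A. Counting intervals cover counting error only, and the main test over libraries did not include IL1B. In the authors' deposited comparison it was called higher (log2 fold change 1.23, adjusted p = 0.0384).

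The interleukin-33 receptor gene IL1RL1 was the most abundant of all 153 genes in wild type, K17 and K19, by FPKM, but not in K18, where IL6, CXCL1, IL32 and CXCL2 stood above it. ST2, its product, binds interleukin-33 together with the accessory chain IL1RAP. It stood at 215.7 ± 7.82 FPKM in wild type, 35.6% of the summed FPKM of the set, and at 100.1 ± 81.4 FPKM in the clones, 18.6%. By library, WT 1, WT 2 and WT 4 measured 654, 659 and 691 CPM. The clones K17, K18 and K19 measured 595, 100.1 and 258 CPM. Every clone lay below every wild-type culture, K17 only slightly, and the test was not passed (log2 fold change -1.07 ± 0.57, adjusted p = 0.179).

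IL1R1, the interleukin-1 receptor, and IL18R1, the ligand-binding chain of the interleukin-18 receptor, lie on either side of IL1RL1 on chromosome 2 and behaved alike in being lower in K18 and K19 but not in K17. IL1R1 measured 10.6, 11.7 and 10.04 CPM in wild type and 12.8, 2.93 and 4.53 CPM in the clones (adjusted p = 0.333). IL18R1 measured 14.2, 15.2 and 15.2 CPM in wild type and 18.8, 10.8 and 9.40 CPM in the clones (adjusted p = 0.581). Without K17 all 3 neighbours were called lower, by -1.52 for IL1R1 (adjusted p = 0.000207), -1.89 for IL1RL1 (adjusted p = 0.0420) and -0.55 for IL18R1 (adjusted p = 0.00176) on the log2 scale. Over all genes tested without K17, 30.3% were called lower. IL1RL2, which lies between IL1R1 and IL1RL1, had 3 counts in wild type and 1 in the clones. Exons of IL1RL1 and IL18R1 overlap on the same strand in GENCODE, with 0.763% and 1.06% of their stretches shared.

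IL1RAP measured 15.4, 13.6 and 15.1 CPM in wild type and 11.2, 14.1 and 15.3 CPM in the clones and was not called (adjusted p = 0.507). IL1RAPL1, a relative of IL1RAP known mostly from neurons, was low and fell from 0.393 to 0.451 CPM in wild type to 0.0346 to 0.0681 CPM, with 41 against 4 counts (log2 fold change -3.10 ± 0.39, adjusted p = 0.00153).

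In the interleukin-17 family the receptor genes IL17RC and IL17RE, adjacent on chromosome 3, both rose, while the other 4 tested genes did not pass the test. IL17RC pairs with IL17RA to bind interleukin-17A and interleukin-17F, and IL17RE pairs with IL17RA to bind interleukin-17C. IL17RC measured 5.53, 6.77 and 5.54 CPM in wild type and 9.37, 12.1 and 9.61 CPM in the clones. The groups did not overlap (1.74-fold higher, log2 fold change 0.80 ± 0.16, adjusted p = 0.00901), but once the trend with GC content had been removed the log2 difference was 0.30 and not called (adjusted p = 0.289). IL17RE measured 0.302, 0.301 and 0.381 CPM against 0.681, 1.84 and 0.899 CPM. All clones were higher, K18 most (3.45-fold, log2 fold change 1.79 ± 0.44, adjusted p = 0.0204), and the call was lost without WT 1, WT 2 or WT 4 and when limma was run on log2(FPKM + 1) (adjusted p = 0.0603 to 0.0798).

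IL17RA, the shared chain, measured 27.4, 27.5 and 24.0 CPM in wild type and 23.7, 26.7 and 28.04 CPM in the clones (log2 fold change -0.01 ± 0.10, adjusted p = 0.950). IL17RB measured 2.63, 2.38 and 2.46 CPM against 2.79, 2.53 and 2.39 CPM (adjusted p = 0.815), and IL17D, a ligand, 2.18, 1.99 and 1.70 CPM against 2.08, 1.52 and 2.08 CPM (adjusted p = 0.862). For these genes the groups overlapped. IL17RD stayed below 0.70 CPM and was not called (adjusted p = 0.336). The related IL17REL missed the filter, with 1 count over wild type and 2, 10 and 11 counts in K17, K18 and K19, 24.7-fold higher (counting interval 4.02 to 1019).

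Of the genes around interleukins 2, 4, 7, 13 and 15, the receptor IL15RA rose and IL13RA1 fell. IL15RA presents interleukin-15 to neighbouring cells. It measured 31.7, 33.6 and 29.8 CPM in wild type and 47.9, 54.4 and 52.6 CPM in the clones, 1.63-fold higher without overlap (log2 fold change 0.70 ± 0.08, adjusted p = 0.00138). IL15 measured 2.51, 3.64 and 3.36 CPM against 5.31, 5.09 and 2.83 CPM. K17 and K18 were above the wild type and K19 within it (adjusted p = 0.213), and without K19 it was called higher (adjusted p = 0.0427).

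IL13RA1 joins IL4R in a receptor for interleukins 4 and 13. It measured 202, 196 and 208 CPM in wild type and 171, 127 and 138 CPM in the clones, 1.39-fold lower without overlap (log2 fold change -0.47 ± 0.11, adjusted p = 0.0183). The call ended when any 1 library other than K17 was left out (adjusted p = 0.0514 to 0.0757). IL4R measured 58.5, 56.5 and 51.9 CPM against 50.7, 59.8 and 61.5 CPM and overlapped (log2 fold change 0.04 ± 0.09, adjusted p = 0.729). Removal of the GC-content trend made it called lower, by -0.22 (adjusted p = 0.0226). IL7R measured 40.2, 41.3 and 40.5 CPM against 32.2, 45.6 and 55.4 CPM (adjusted p = 0.615). The clones surrounded the narrow wild-type range, and without K17 the gene was called higher (log2 fold change 0.32, adjusted p = 0.0112).

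Among the remaining genes only IL16 passed the test. IL16 encodes a chemoattractant for CD4-bearing cells and is made as a longer precursor. It measured 0.937, 1.26 and 1.11 CPM in wild type and 3.92, 2.13 and 3.15 CPM in the clones, 2.77-fold higher without overlap (log2 fold change 1.47 ± 0.27, adjusted p = 0.00709). IL16 overlaps STARD5 on the opposite strand. IL32, an abundant intracellular cytokine gene, measured 54.9, 58.0 and 56.2 CPM against 35.6, 59.6 and 65.1 CPM (adjusted p = 0.791), with K17 alone below the wild type.

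In the interleukin-10 family IL10RB, a chain shared by several receptors, measured 27.9, 25.8 and 26.6 CPM in wild type and 32.5, 28.1 and 29.4 CPM in the clones. Its groups did not overlap but it was not called (adjusted p = 0.156), and it was called higher with the GC-content trend removed (log2 fold change 0.23, adjusted p = 0.0227). Of its transcript stretches 36.3% are shared with other genes, chiefly the overlapping AP000295.1. IL20RB measured 1.36, 1.62 and 1.73 CPM against 1.43, 1.55 and 1.14 CPM (adjusted p = 0.460). The antisense RNA IL10RB-AS1 measured 0.967, 1.11 and 0.831 CPM against 1.16, 0.903 and 1.14 CPM (adjusted p = 0.621). IL12A, a subunit of interleukin-12, measured 4.38, 3.79 and 4.46 CPM against 3.98, 6.32 and 6.60 CPM (adjusted p = 0.165) and was called higher without K17 (log2 fold change 0.62, adjusted p = 0.00416). IL12RB2, IL23A and IL4I1 had group means below 1.0 CPM and were not called (adjusted p = 0.875, 0.973 and 0.976).

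**Figure D3:**
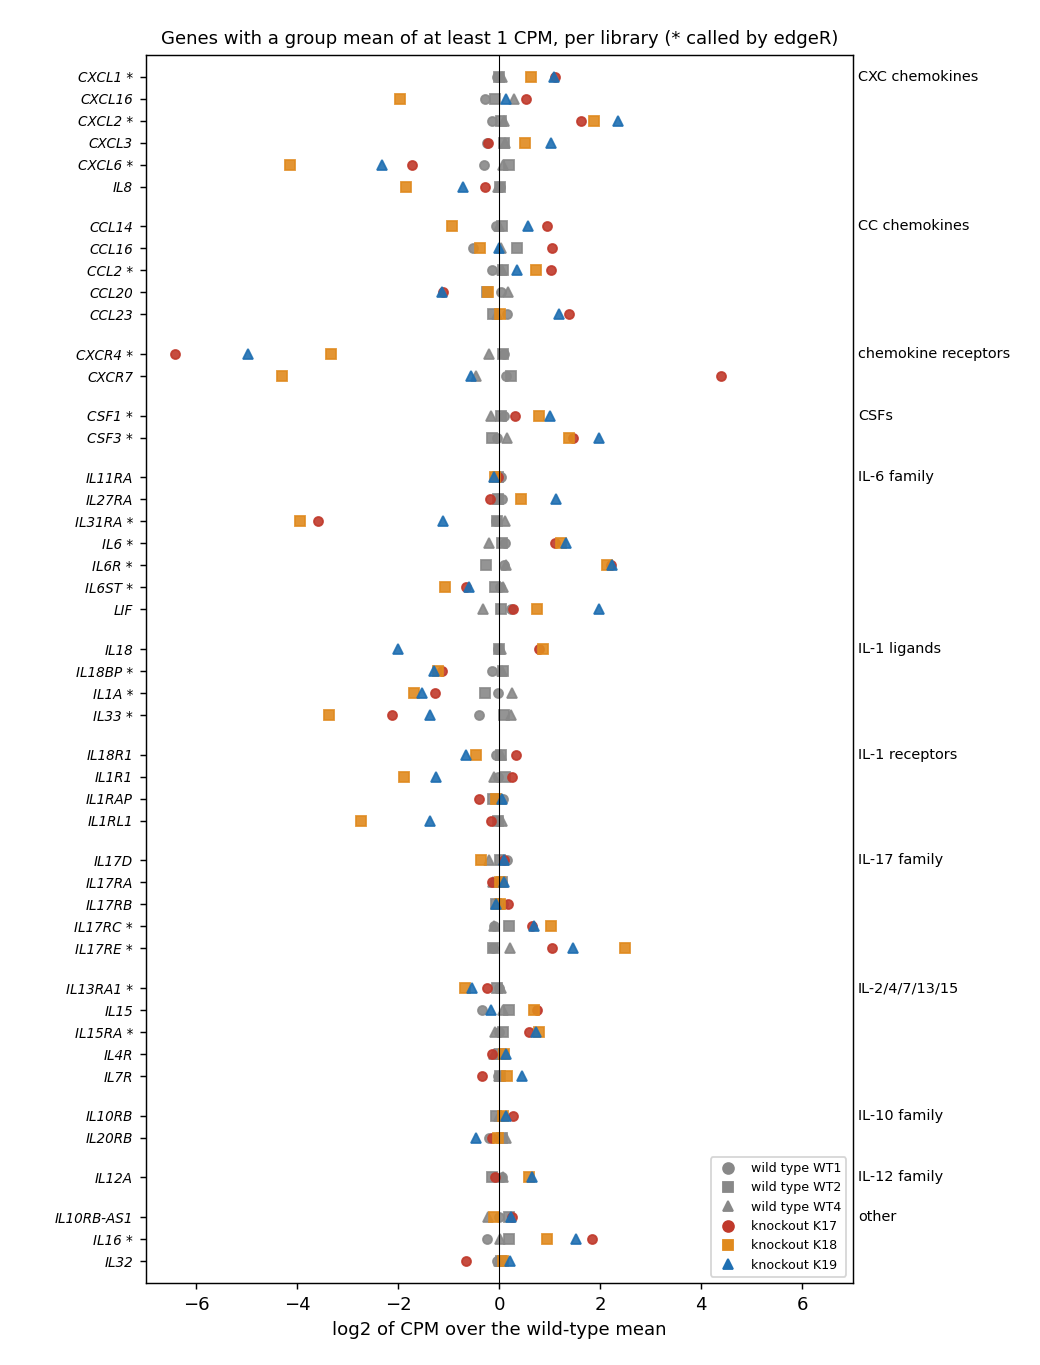
Log2 of CPM over the wild-type mean (horizontal axis) in each library for the 46 tested genes with a group mean of at least 1 CPM, by family, with an asterisk at genes called by edgeR. Grey wild-type points lie close together at zero, while the coloured clones spread widely for CXCR7, IL31RA, IL1RL1, IL18 and CXCR4.

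Several of these genes differed widely among the clones. Of the 44 tested genes with a mean over the 6 libraries of at least 1 CPM, 11 (25.0%) had a highest clone more than 3 times the lowest, where 4.83% of all 12969 such genes did, and in wild type none of the 44 did. The median ratio of highest to lowest was 1.17 in wild type and 1.69 among the clones, against 1.09 and 1.25 over all genes. In 8 of the 11 the lowest clone was K18, as for IL1RL1, IL1R1, CXCL6, CXCL16, CCL14, IL33, IL31RA and CXCR7. Over all 44 genes K18 was the lowest clone for 20, and over all 12969 genes for 30.1%. These shares describe this set, and no test of the difference in spread was made.

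Genes below the filter were named where a library reached 10 counts. Besides CXCL12, IL1B and IL17REL these were IL21R, IL10RA, CXCR6, IL18RAP, CCR10 and CCL5. CCL5, an attractant of T cells and monocytes, had 5, 11 and 11 counts in wild type and 1, 4 and 1 in the clones, 4.18-fold lower with a counting interval of 1.69 to 12.4. CXCR6, the receptor of CXCL16, had 5, 8 and 14 against 2, 4 and 5 counts, 2.28-fold lower with an interval of 1.10 to 5.10. CCR10 had 7 counts against 21, 13 of these in K19. The intervals for CXCL12, IL21R, IL10RA and IL18RAP included equality. None of these intervals covers the spread between libraries. In the authors' deposited comparison CCL5, CXCR6 and CCR10 were not called (adjusted p = 0.151, 0.403 and 0.244).

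A further 49 genes had reads but fewer than 10 in every library. Among these CX3CL1 and IL22RA1 are named here after their counts were seen. CX3CL1 encodes fractalkine, a membrane-bound chemokine of endothelium that binds CX3CR1. It had 4, 6 and 7 counts in wild type and 0 in every clone. With the 3 clones together set at a floor of 3 counts, it was 5.27-fold lower. The lower limit of its 95% counting interval is 3.84-fold. IL22RA1 had 1 count over wild type and 7, 6 and 8 counts in the clones, 22.6-fold higher (counting interval 3.63 to 934). In the authors' deposited comparison IL22RA1 was called higher (adjusted p = 0.0150) and CX3CL1 was not called (adjusted p = 0.0581).

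The 40 genes at 0 included IL2, IL3, IL10, IL17A and IL22, cytokines made mainly by leukocytes. IL3RA and IL9R were also listed at 0. They lie in the pseudoautosomal regions at opposite ends of chromosome X. From the region of IL3RA, SLC25A6, ASMTL, DHRSX and AKAP17A were listed at 0 as well, with 1 count for CD99. Since several of these are genes that most cells use, the 0 of IL3RA, CSF2RA and CRLF2 is a listing and not a measured absence. No other gene from the region of IL9R was looked at, so whether its 0 is a measured absence is not known.

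Genes of the same pathways outside the set, taken from 4 lists, included some that rose and some that fell. Over all 14548 tested genes 18% were called higher and 20.8% lower, to be set beside the counts of each list. Of 10 tested genes for other gp130 and haematopoietin ligands and receptors, 7 were higher, 1 lower and 2 not called, with a median log2 fold change of 1.42. OSMR, the oncostatin M receptor and the partner of IL31RA, rose from 19.1, 17.8 and 19.1 CPM to 76.4, 75.2 and 68.7 CPM (log2 fold change 1.97 ± 0.07, adjusted p = 3.04e-05). KITLG, which encodes stem cell factor, rose by 1.29 on the log2 scale (adjusted p = 0.000293). KIT, its receptor, fell from 4.76 to 5.23 CPM in wild type to 0 CPM in K17 and K18 and 0.0346 CPM in K19 (adjusted p = 8.35e-05). OSMR was thus higher in the same clones in which IL31RA and IL6ST were lower.

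Of 20 tested JAK, STAT and SOCS genes, 3 were higher, 5 lower and 12 not called, with a median log2 fold change of -0.08. SOCS3, a feedback inhibitor that binds gp130 and is induced by STAT3, rose from 18.9, 20.1 and 18.8 CPM to 57.5, 60.4 and 94.98 CPM (log2 fold change 1.88 ± 0.21, adjusted p = 0.00118). STAT6, the factor downstream of interleukins 4 and 13, rose by 0.79 (adjusted p = 0.00482). SOCS7 and SOCS4 had log2 fold changes of -0.69 and -0.46 (adjusted p = 0.00158 and 0.00255). STAT3, named outside the rule for its place after gp130, was not called (log2 fold change 0.04 ± 0.07, adjusted p = 0.671).

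Of 5 tested chemokine genes that the name rule missed, 2 were higher, 1 lower and 2 not called, with a median log2 fold change of 0.18. CCRL2, an atypical receptor, rose from 9.66 to 10.1 CPM in wild type to 20.7 to 28.4 CPM (log2 fold change 1.38 ± 0.14, adjusted p = 0.000806). CMKLR1, the chemerin receptor, went from at most 0.0602 CPM in wild type to 17.7, 3.22 and 5.05 CPM in the clones (adjusted p = 0.00259). Both genes encode proteins that bind chemerin. DARC (current symbol ACKR1), the chemokine-transporting receptor of venules, measured 7.29, 7.64 and 5.57 CPM in wild type and 2.83, 0.289 and 1.00 CPM in the clones (log2 fold change -2.31 ± 0.66, adjusted p = 0.0358).

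Of 19 tested genes for interleukin-1, interleukin-18 and interleukin-17 signalling, 6 were higher, 3 lower and 10 not called, with a median log2 fold change of 0.21. NLRP3, the sensor of the inflammasome that matures interleukin-1 beta and interleukin-18, rose from 0.727 to 0.816 CPM in wild type to 1.80 to 2.79 CPM (log2 fold change 1.62 ± 0.22, adjusted p = 0.00247). ZC3H12A, a nuclease that degrades cytokine messages such as that of IL6, rose from 4.35 to 5.48 CPM to 11.8 to 22.4 CPM (log2 fold change 1.86 ± 0.26, adjusted p = 0.00267). IRAK2 and MAP3K7, kinases downstream of the interleukin-1 receptor, had log2 fold changes of -0.62 and -0.21 (adjusted p = 0.00174 and 0.0158). Beside these lists the median over all 14548 tested genes was 0.00.

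**Figure D4:**
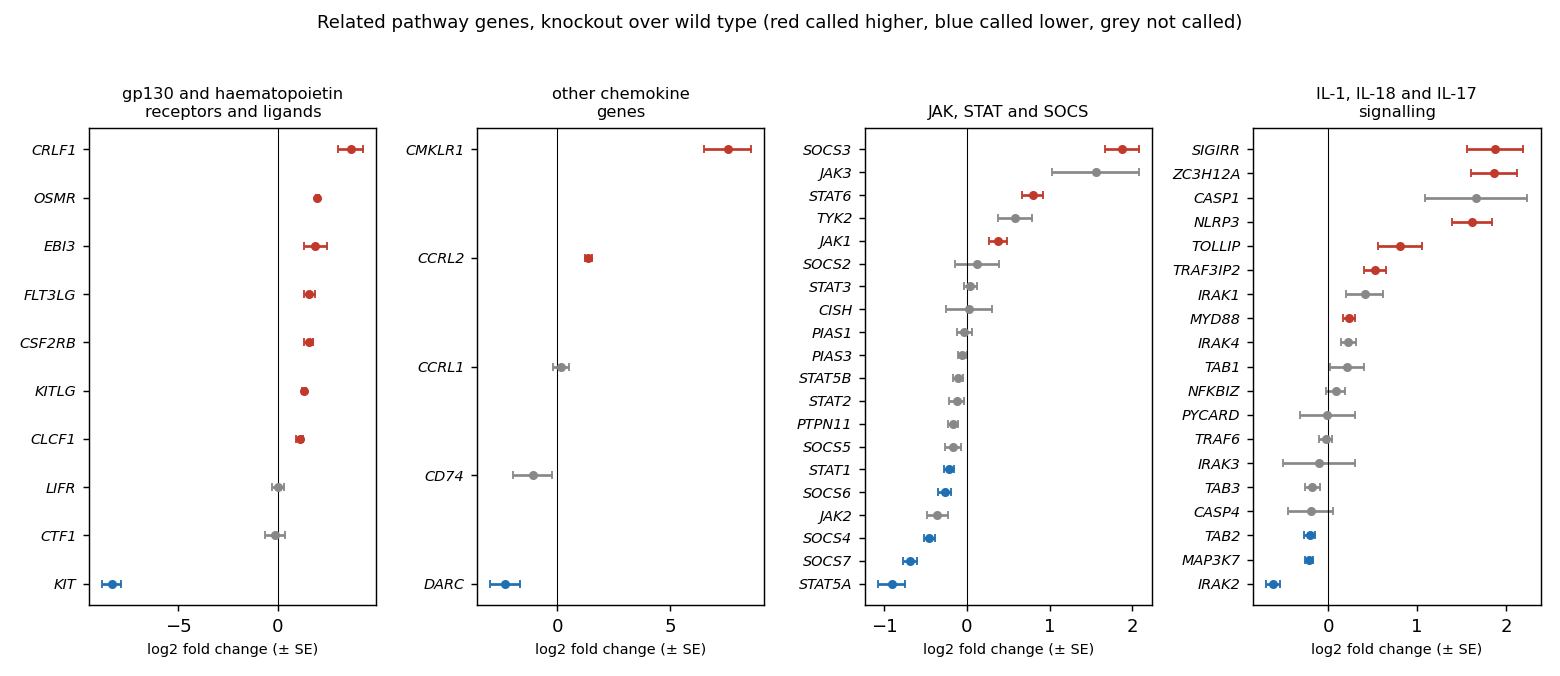
Log2 fold change, knockout over wild type, with its standard error (horizontal axis) for the tested genes of 4 related pathway lists, red where called higher, blue where called lower and grey where not called. The KIT value rests on 1 count in the knockout clones and is no bound on its change.

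The authors' deposited table of the same comparison listed 113 of the genes, with 15 higher and 10 lower at an adjusted p below 0.05. Among those 15 were IL1B, IL17REL and IL22RA1, which missed the filter here. All 22 genes called here were also called in the authors' deposited table, and the sign was the same for all 55 tested genes.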

How the data were processed

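Stranded mRNA libraries were made from 3 wild-type cultures and 3 CCM3-knockout clones of CI-huVEC. STAR and HTSeq, without versions, and the builds hg19 and GRCh37 are named per the submitters' processing notes. The annotation and the strand setting of the counting are not stated there, which leaves genes that overlap, on either strand, uncertain. The deposited table held raw counts per gene symbol and FPKM computed by the authors, per the file headers. A further table of the authors' own comparison held, per the file headers, a mean signal per gene, a log2 fold change and a p-value with its adjusted value.

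Counts were tested with edgeR 4.0.16 (R 4.3.3): quasi-likelihood F test with robust estimation, two-sided, TMM factors, default filterByExpr (minimum count 10, total 15), and Benjamini-Hochberg adjustment over 14548 genes. Genes below an adjusted p of 0.05 were called. CPM use TMM factors, and a positive log2 fold change means higher in knockout. Ratios of few counts carry exact 95% counting intervals. The test was also run on simulated counts. No 2 libraries agreed within sampling noise, and replicate numbers pair nothing.

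Genes, lists and rules were chosen with earlier results of these data known. Every tested gene is named, and those with a group mean of at least 1 CPM are given per library. Untested genes are named from 10 counts in a library, and up to 4 called genes per outside list, 2 in each direction, by the smallest adjusted p. Promoters came from RefSeq (GRCh38.p14), where CCL2 was not matched, and neighbours from the same assembly. Shared 50-base stretches and overlaps came from GENCODE transcripts. Alternatives were other scalings and filters, DESeq2 1.42.0, limma 3.58.1 (voom, or log2 of FPKM plus 0.1 or 1), no robust estimation, removal of a GC-content trend (lowess, span 0.3, 13251 genes), a threshold of 0.01, and each library left out.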

Additional observations from a re-analysis of the deposited data

How the results depend on the processing

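Of 46 genes followed through 17 alternative settings, 42 had a value in each, and 22 of these kept their call in all 17. CCL23, CXCR7, IL17RE and LIF had none under the filter of 1 CPM, nor CXCR7 under DESeq2. With 1 library left out, the number of genes called higher ranged from 9 to 19 (12 with all libraries) and the number called lower from 7 to 12 (10 with all libraries). The highest values came without K17, and the cause was not tested. Under the other settings, a threshold of 0.01 among them, 9 to 15 were called higher and 7 to 12 lower. IL4R reversed with the GC-content trend removed, to -0.22 on the log2 scale (adjusted p = 0.0226). With limma on log2(FPKM + 1), whose pseudocount shrinks low genes, the log2 fold change was -2.02 for CXCR4, -0.73 for CXCL6, 1.16 for IL6R, -0.53 for IL33, -0.29 for IL1A, 0.21 for IL16 and 0.26 for IL17RE. With 0.1 in place of 1 it was 0.87 for IL16 and 1.03 for IL17RE. Other scalings changed no call and moved the median of all genes by at most 0.04. No paired analysis was possible because the replicate numbers were given in listing order. Calls lost most often were those of CCL2, CSF1, IL13RA1, IL17RE and IL31RA. Genes under about 0.1 CPM in both groups lie near the floor of 3 counts, and a change between such levels was not detectable at this depth.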
